A study of Homo sapiens with 6 samples.

Results

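The metzincin proteases and their inhibitors were examined in Hs578T, a human breast cancer cell line, on 6 Affymetrix HuGene 2.0 arrays. Genes were taken by symbol from the platform's annotation: matrix metalloproteinases (MMP), ADAM proteases, ADAMTS-like proteins and tissue inhibitors of metalloproteinases (TIMP), without the collagenases MMP1 and MMP13 and without antisense transcripts. This gave 51 of the 14884 genes with a symbol: 17 MMPs, 12 ADAMs described as active proteases, 7 ADAMs described as lacking the catalytic motif, 5 ADAMTS-like proteins, 4 TIMPs and 6 transcribed pseudogenes. The 19 ADAMTS proteases looked for, and MMP2, MMP3, MMP7 and MMP9, were not analysed here, and of the ADAMTS symbols only the pseudogene ADAMTS7P1 was.

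The 3 siControl arrays held RNA of cells transfected with a non-targeting siRNA, and the 3 siCSRP2 arrays RNA of cells given siRNA against CSRP2, a LIM domain protein that bundles actin. Every culture was Hs578T in DMEM containing 10% serum and 0.01 mg/ml insulin, transfected with a lipid reagent the day after plating (150000 cells in each well of a 6-well plate). A day later (24 h), 100000 cells of each well went into a 24-well plate, and RNA was extracted after a further 48 h. The labels give 1 cell line and no siRNA sequence, and do not say whether replicates were separate cultures, so the p-values describe the variation among 6 arrays, possibly technical, and this number bounds their precision.

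CSRP2 did not pass the test (log2 difference -0.26, adjusted p = 0.583), so siCSRP2 here means the arrays labelled so. CSRP2 was lower in all 3 pairs of equal replicate number (-0.44, -0.24 and -0.09). It did not pass in a limma fit that blocks on that number either (adjusted p = 0.188). Of 5 mesenchymal markers VIM, FN1, AXL and SNAI2 fell and ZEB1 did not pass; VIM and FN1 were bright on siControl arrays (log2 means 8.04 and 11.10). None of 4 epithelial markers passed in limma, but the bright keratin KRT18, lower in all 3 pairs (-0.74, adjusted p = 0.0635), fell in a fit that blocks on replicate number (adjusted p = 0.00746). The hormone receptor genes ESR1 and PGR (means over the 6 arrays 2.67 and 2.49) lay under 2.99, the median over all gene means. The part of these markers in the results below was not tested. Array siControl 3 stood apart, correlating with the siCSRP2 arrays (mean r = 0.966) about as closely as with the other controls (0.967).

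Metzincins are zinc-dependent proteases that share a catalytic fold. MMPs cut collagens and other matrix proteins, either as secreted enzymes or anchored to the cell surface. ADAMs are membrane proteins that release the outer part of receptors, ligands and adhesion molecules, a step called shedding, and TIMPs block many of these enzymes. In invasive breast cancer cells such proteases act at invadopodia, the actin-rich protrusions that degrade matrix.

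ADAM15 and ADAMTSL2 passed the test, and ADAM17 passed once the replicate number was fitted as a block. Their upstream sequences are printed because these genes passed with or without the block. Each stretch is the 250 bases before the RefSeq start, build GRCh38.p14, 5′ to 3′ on the gene's strand. Capitals mark the GC box GGGCGG on either strand, the classical binding sequence of SP1 family factors.
ADAM15 (chr1:155051066-155051315, + strand): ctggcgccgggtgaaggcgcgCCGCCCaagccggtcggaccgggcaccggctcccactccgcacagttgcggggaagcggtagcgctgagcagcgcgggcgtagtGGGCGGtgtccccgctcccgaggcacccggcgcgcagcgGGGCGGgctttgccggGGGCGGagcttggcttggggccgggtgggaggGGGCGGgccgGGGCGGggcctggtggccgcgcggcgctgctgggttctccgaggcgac
ADAM17 (chr2:9555831-9556080, - strand): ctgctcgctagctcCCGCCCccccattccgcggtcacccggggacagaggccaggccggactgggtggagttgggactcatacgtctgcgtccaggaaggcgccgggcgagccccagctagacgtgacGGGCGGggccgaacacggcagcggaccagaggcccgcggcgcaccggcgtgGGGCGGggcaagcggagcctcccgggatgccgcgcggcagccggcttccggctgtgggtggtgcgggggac
ADAMTSL2 (chr9:133534454-133534703, + strand): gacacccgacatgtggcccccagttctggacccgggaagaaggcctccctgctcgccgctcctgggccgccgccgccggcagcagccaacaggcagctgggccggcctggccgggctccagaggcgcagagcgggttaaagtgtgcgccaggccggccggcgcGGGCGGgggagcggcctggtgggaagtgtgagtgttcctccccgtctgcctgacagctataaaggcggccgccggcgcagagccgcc
The ADAM15 stretch held 6 GC boxes and was 79.6% G and C. The ADAM17 stretch held 3 (75.6% G and C), and that of ADAMTSL2 held 1 (73.6%). GGGCGG occurred in 42.3% of 27305 RefSeq windows of this length, and in 19 of the 31 genes of the family that have one. The AP-1 sequence TGANTCA, in 6.6% of all windows, was within the family in those of MMP10 and MMP20. CCAAT was in 33% of all windows and in 12 of the 31. Both were searched on both strands and neither was in the stretches printed, so no matches overlap there. A match describes letters, not a bound site.

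The comparison of siCSRP2 with siControl asks whether the protease repertoire differs in cells given siRNA against CSRP2. Of the 51 genes ADAM15 fell, ADAMTSL2 rose and 49 did not pass. That is 3.92% of the family, beside 7.34% of all 14884 genes (974 fell, 6.54%, and 119 rose, 0.8%; after quantile normalization 666 fell and 210 rose). With the replicate block 5.88% of the family passed, beside 15.8% of all genes (13.1% fell and 2.67% rose). As deposited, only ADAM15 differed by more than 0.5 on the log2 scale, whereas 13.1% of all genes did. Quantile normalization took ADAM17 (0.55) and MMP24 (0.59) past 0.5 too, and median centring took ADAMTSL5 (-0.51) and MMP25 (-0.50) just past it. The median log2 difference of the family was 0.04, beside 0.02 for all genes. Both medians turned negative after quantile normalization (family -0.003, all genes -0.016), cyclic loess (-0.006 and -0.023) or median centring (-0.048 and -0.067).

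Signal level bears on these shares. Only 19 of the 51 genes had a mean over the 6 arrays above the median of gene means, and they are called bright here and the other 32 dim. Of the bright genes 10.5% passed, beside 14.1% of all 7442 bright genes, and 1 of 19 differed by more than 0.5, as did 25.2% of all bright genes. The groups did not overlap for 9 of the 19, beside 35.6% of all bright genes. The dim genes include the enamel protease MMP20, the testis genes ADAM2, ADAM18, ADAM20, ADAM21, ADAM29 and ADAM30, and nearly every secreted MMP among the 51. Outside the 51, the secreted MMP1 and MMP13 were bright (means over the 6 arrays 3.65 and 4.59), and MMP2, MMP3, MMP7 and MMP9 were not analysed. None of the 32 passed in limma, beside 0.605% of all 7442 dim genes. An unadjusted p under 0.05 was found for 3 of the 32 (2 higher, 1 lower). Among all 7442 dim genes it was found for 390 higher and 223 lower. No detection calls were used, and near background a log2 difference may be too small.

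**Figure D1:**
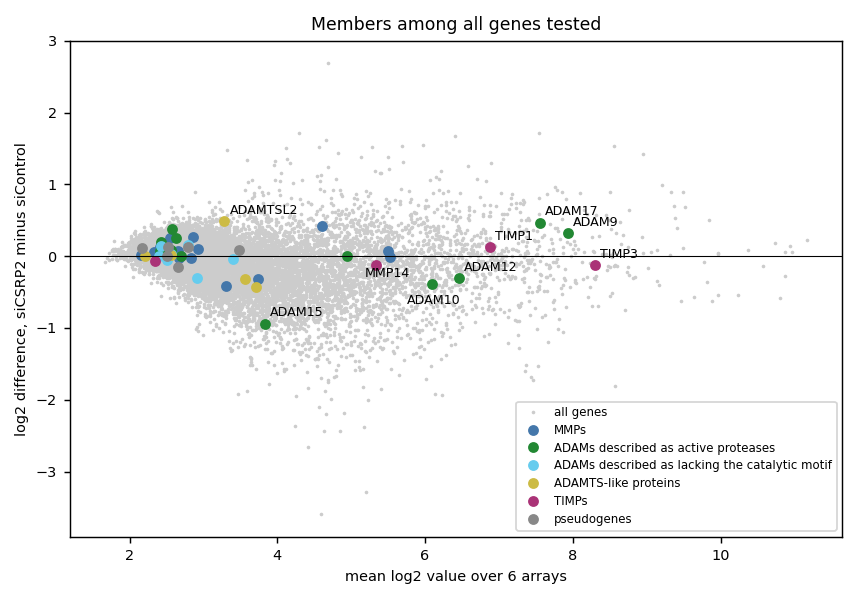
Mean log2 value over the 6 arrays (x axis) against the log2 difference of siCSRP2 minus siControl (y axis) for all 14884 genes (grey) and the 51 metzincin genes and inhibitors (coloured by class). ADAM15 at -0.94 is the only coloured point farther than 0.5 from 0 in the values as deposited.

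The active ADAMs held the largest single change of the family. ADAM15, a disintegrin protease that can cut cadherins, measured 4.25, 4.34 and 4.32 on siControl arrays and 3.55, 3.41 and 3.13 with siCSRP2 (log2 values of replicates 1, 2 and 3). All siCSRP2 values lay below all controls, and the controls lay close together. The means were 4.30 ± 0.05 and 3.36 ± 0.22 (SD, n = 3), a 1.92-fold fall (log2 difference -0.94, SE 0.13, 95% interval -1.23 to -0.64, limma adjusted p = 0.00833). It passed in 16 of 17 alternative fits. The exception left out siControl 2, with a difference of -0.92 and an adjusted p of 0.0569.

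ADAM10 and ADAM17 are the main sheddases, which release Notch receptors, growth factor precursors and TNF. They lay on opposite sides of 0. ADAM17 measured 7.26, 7.11 and 7.59 on siControl arrays and 7.65, 7.75 and 7.96 with siCSRP2. The groups did not overlap, with siControl 3 nearest to the siCSRP2 values. The log2 difference was 0.47 (SE 0.15, 95% interval 0.13 to 0.81) and did not pass (adjusted p = 0.0979). With the replicate block it rose (adjusted p = 0.0284), as it did without siControl 3 (0.60, adjusted p = 0.0153). ADAM17 passed in 5 of 17 alternative fits. With any other array left out it did not pass, and the limma adjusted p reached 0.325 without siControl 2.

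ADAM10 measured 6.39, 6.14 and 6.34 on siControl arrays and 5.88, 6.03 and 5.79 with siCSRP2, again without overlap. Its log2 difference was -0.39 (SE 0.12, 95% interval -0.66 to -0.11, adjusted p = 0.0885). Of the alternatives it passed after median centring (-0.47, adjusted p = 0.0412), with or without the block. The difference ADAM17 minus ADAM10 within each array is free of any shift common to an array. It was 0.87, 0.97 and 1.25 in the controls and 1.77, 1.72 and 2.16 with siCSRP2, an increase of 0.85 in the mean. This pair was chosen after its values were seen, so the increase is a description with no test, and it compares changes, not the levels of the 2 genes.

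ADAM9 and ADAM12 were the other bright active ADAMs with a difference of 0.30 or more in size. ADAM9, a widely expressed sheddase, measured 7.80, 7.70 and 7.81 on siControl arrays and 8.07, 8.10 and 8.10 with siCSRP2. All siCSRP2 values lay above all controls and both groups were tight, yet the difference of 0.32 (SE 0.10) had an adjusted p of 0.0936. ADAM12, which is raised in breast cancers and linked to invadopodia, measured 6.61, 6.79 and 6.42 on siControl arrays and 6.16, 6.53 and 6.23 with siCSRP2. The groups overlapped, and the difference was -0.30 (SE 0.14, adjusted p = 0.25), although siCSRP2 was lower in each of the 3 pairs of equal number.

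ADAM19, a sheddase of neuregulins, measured 5.01, 4.88 and 4.93 on siControl arrays and 4.49, 5.23 and 5.11 with siCSRP2. The siCSRP2 1 value lay below all controls and the other siCSRP2 values above them, with group means of 4.94 and 4.94 (95% interval of the difference -0.42 to 0.42). The remaining active ADAMs, ADAM8, ADAM20, ADAM21, ADAM28, ADAM30 and ADAM33, were dim, with differences from 0.00 (ADAM28) to 0.37 (ADAM21). ADAM21 was higher on all siCSRP2 arrays than on all controls (adjusted p = 0.0718), and passed with array weights and with a trended, robust variance.

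**Figure D2:**
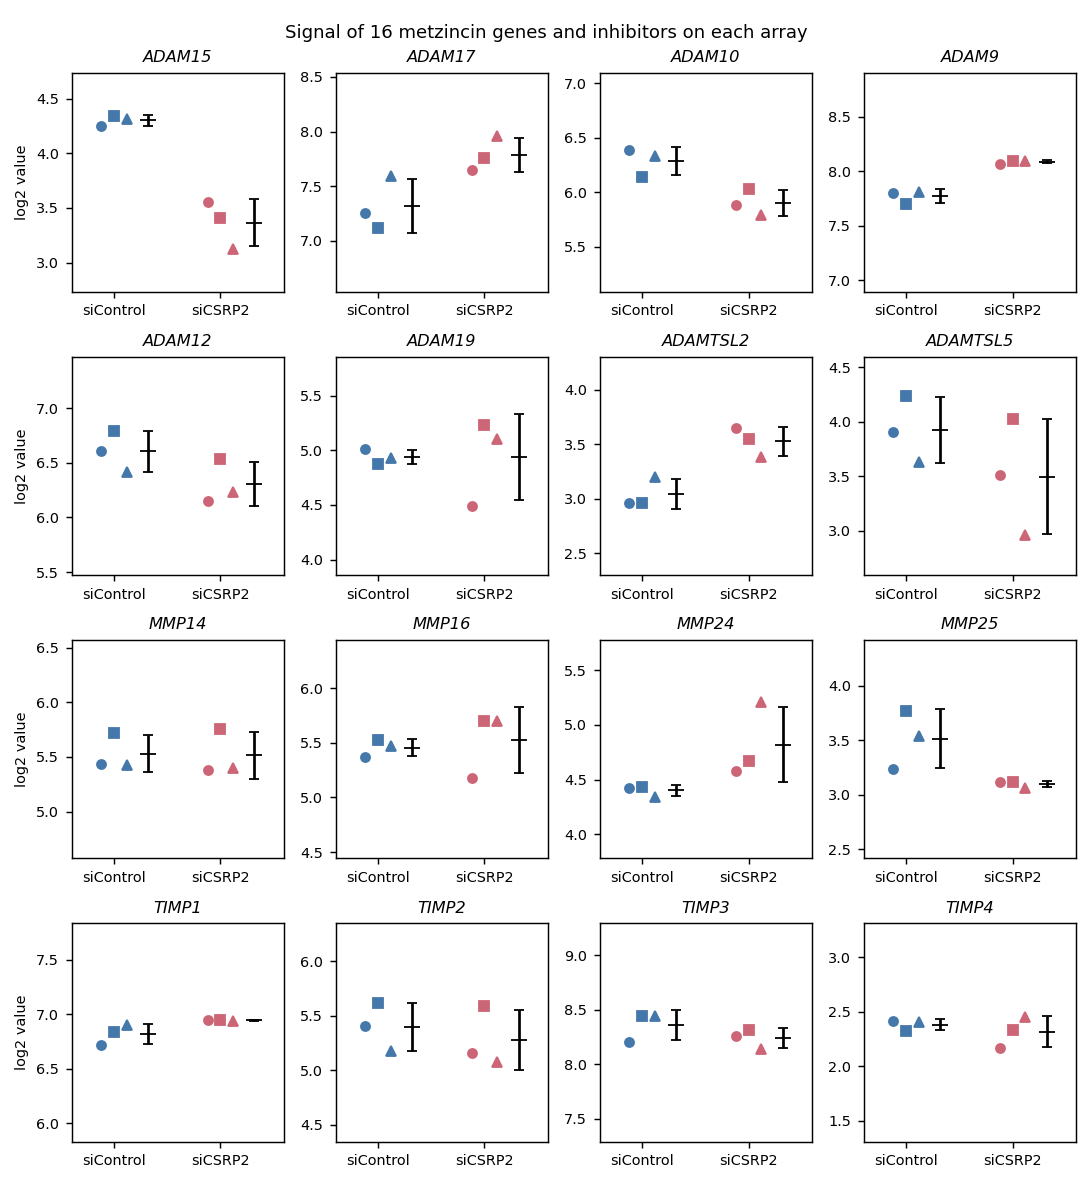
Log2 value (y axis) of 16 metzincin genes and inhibitors on each array, by group (x axis). Circles, squares and triangles are replicates 1, 2 and 3, and bars give the mean and SD (n = 3). The groups separate for ADAM15, ADAM17, ADAM10, ADAM9, ADAMTSL2, MMP24, MMP25 and TIMP1, and overlap for the other 8.

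The 7 ADAMs described as lacking the catalytic motif, several of which serve in adhesion in brain or sperm, differed by -0.30 (ADAM23) to 0.15 (ADAM22); the others are ADAM2, ADAM11, ADAM18, ADAM29 and ADAM32. None passed in limma, and ADAM23 alone had an unadjusted p under 0.05, beside 23.7% of all genes. The 6 pseudogenes, ADAM3A, ADAM6, ADAM20P1, ADAM21P1, ADAMTS7P1 and MMP23A, ran from -0.15 to 0.13, none with an unadjusted p under 0.05. Signal of near-identical copies, such as MMP23A and MMP23B, may not be separable by hybridisation.

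ADAMTSL2 was the only one of the 51 genes that rose. It encodes a secreted glycoprotein without protease activity that binds latent TGF-beta binding proteins of the matrix. ADAMTSL2 measured 2.96, 2.96 and 3.20 on siControl arrays and 3.65, 3.55 and 3.38 with siCSRP2. The groups did not overlap, and the difference was 0.49 (SE 0.12, 95% interval 0.21 to 0.77, adjusted p = 0.0482). The call was close to the threshold and held in 8 of 17 alternative fits. Leaving out siControl 1, siControl 2, siCSRP2 1, siCSRP2 2 or siCSRP2 3 ended it (adjusted p from 0.0809 to 0.191), as did median centring (0.40, adjusted p = 0.0665).

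The other ADAMTS-like genes did not pass. ADAMTSL5 measured 3.91, 4.23 and 3.63 on siControl arrays and 3.51, 4.02 and 2.96 with siCSRP2. Both groups spread widely, and the spread followed the replicate number: siCSRP2 was lower in every pair, with differences of -0.40, -0.21 and -0.67. The difference was -0.43 (SE 0.26, 95% interval -1.01 to 0.16, adjusted p = 0.361). With the replicate block the SE was 0.12 and the adjusted p 0.0542, and with median centring as well it fell (adjusted p = 0.0196). ADAMTSL1 was lower on all siCSRP2 arrays than on all controls (-0.31, adjusted p = 0.217). ADAMTSL3 and ADAMTSL4, both dim, differed by 0.02 and 0.00.

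None of the 17 MMPs passed in limma. An unadjusted p under 0.05 was found for 3 of them (MMP8, MMP24 and MMP25), beside 23.7% of all genes. MMP14, the membrane-anchored collagenase that is a main matrix-degrading enzyme of invadopodia, measured 5.44, 5.72 and 5.42 on siControl arrays and 5.38, 5.76 and 5.40 with siCSRP2. Replicate 2 was the highest in both groups, and the pairs of equal number differed by -0.05, 0.04 and -0.02. The log2 difference was -0.01 (SE 0.14, 95% interval -0.34 to 0.32, adjusted p = 0.967), an interval narrower than 1.5-fold either way, and quantile normalization turned its sign (0.15). The collagenases left out of the family did change: MMP13 fell by 3.59 on the log2 scale. MMP1 fell by 1.43 on that scale.

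MMP16 and MMP24 were the other bright membrane-anchored MMPs beside MMP25. MMP16 measured 5.37, 5.53 and 5.47 on siControl arrays and 5.18, 5.70 and 5.70 with siCSRP2, overlapping, with a difference of 0.07 (SE 0.16, 95% interval -0.28 to 0.42, adjusted p = 0.817). MMP24, known for cutting cadherins in neurons, measured 4.43, 4.44 and 4.34 on siControl arrays and 4.57, 4.67 and 5.21 with siCSRP2. All siCSRP2 values were higher, siCSRP2 3 most of all, and the difference was 0.42 (SE 0.17, adjusted p = 0.169). Without siCSRP2 3 it was 0.22, and a second, dim MMP24 probe set differed by 0.07.

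MMP25, a membrane-anchored enzyme best known from neutrophils, measured 3.23, 3.77 and 3.54 on siControl arrays and 3.11, 3.12 and 3.07 with siCSRP2. The siCSRP2 values were tight and all lower (-0.41, SE 0.14, adjusted p = 0.119), while the other probe sets of the gene gave -0.16 and 0.05. MMP15 and MMP17, also membrane-anchored and dim, differed by -0.02 and -0.02. MMP19, a secreted enzyme and the remaining bright MMP, differed by -0.32 (SE 0.17, adjusted p = 0.3). MMP8, MMP10, MMP11, MMP12, MMP20, MMP21, MMP23B, MMP26, MMP27 and MMP28 were dim, with differences from 0.02 (MMP12) to 0.27 (MMP20).

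**Figure D3:**
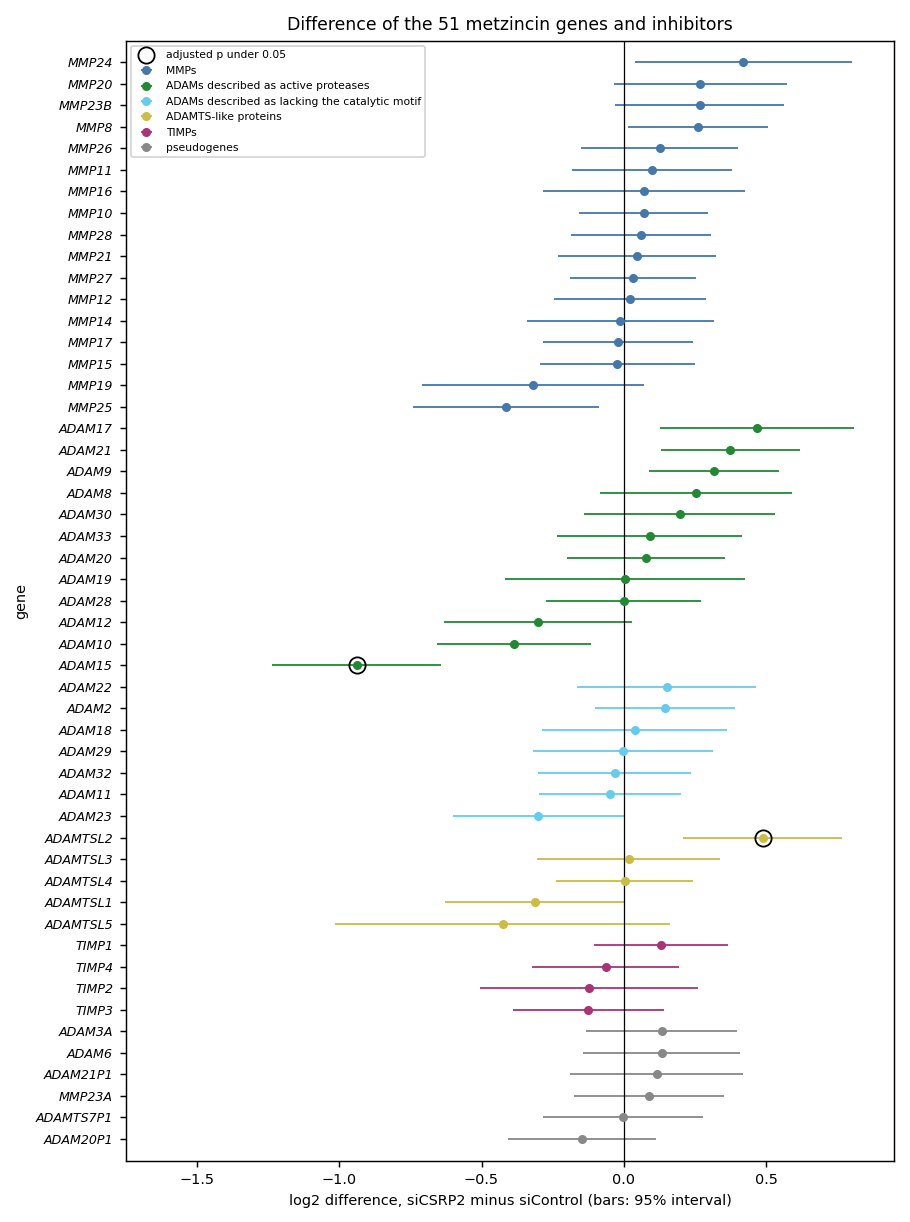
Log2 difference of siCSRP2 minus siControl (x axis) with its 95% interval for each of the 51 genes (y axis), coloured by class and ordered by size within it. Black circles mark ADAM15 at -0.94 and ADAMTSL2 at 0.49, which passed at an adjusted p under 0.05.

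The TIMPs bind the active site of MMPs and of some ADAMs. On the brightest probe set of each, none of the 4 passed in limma or had an unadjusted p under 0.05. Each 95% interval of these probe sets lay within 1.5-fold in either direction. A second TIMP3 probe set, described below, differed by more (-0.50). TIMP1 measured 6.71, 6.83 and 6.90 on siControl arrays and 6.95, 6.95 and 6.94 with siCSRP2. All siCSRP2 values were higher, by 0.13 in the mean (SE 0.10, adjusted p = 0.488). TIMP2, which also takes part in the activation of pro-MMP2 by MMP14, measured 5.40, 5.61 and 5.18 on siControl arrays and 5.16, 5.59 and 5.08 with siCSRP2. As with MMP14, replicate 2 was the highest in each group (-0.12, SE 0.17, adjusted p = 0.704), and the sign turned after quantile normalization (0.05) or cyclic loess.

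TIMP3, the matrix-bound inhibitor of ADAM17, measured 8.20, 8.44 and 8.44 on siControl arrays and 8.26, 8.32 and 8.14 with siCSRP2, with overlap (-0.12, SE 0.12, adjusted p = 0.557). Its second, dimmer probe set measured 4.57, 4.90 and 4.96 on siControl arrays and 4.41, 4.28 and 4.26 with siCSRP2. That probe set was lower on every siCSRP2 array (-0.50, SE 0.13), with an adjusted p of 0.061 over all named probe sets. TIMP4 was dim at 2.41, 2.32 and 2.41 on siControl arrays and 2.17, 2.33 and 2.45 with siCSRP2 (-0.06, adjusted p = 0.771).

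Non-overlapping groups were about as frequent in the family as among all genes: 13 of the 51 (25.5%), beside 27.7%. The siCSRP2 values lay wholly above the controls for ADAM2, ADAM9, ADAM17, ADAM21, ADAMTSL2, MMP8, MMP20, MMP24 and TIMP1 (9 genes; 11.5% of all genes), and wholly below for ADAM10, ADAM15, ADAMTSL1 and MMP25 (4 genes; 16.2%). The balance of directions depended on scaling. Quantile normalization left 7 genes above and 4 below (11 of 51, beside 24.1% of all genes in either direction). Cyclic loess left 7 and 5 (12 of 51, beside 24%). Median centring gave 5 above and 6 below (11 of 51, beside 26.6%), without ADAM2, ADAM17, MMP20 and TIMP1 among those above. The all-gene shares of each direction under these scalings are not given here.

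Genes that mature, restrain or are cut by these proteases included further changes. Of 13 genes for maturation and transport of ADAMs and anchored MMPs, 2 fell, none rose and 11 did not pass. That is 15.4% passing, beside 7.34% of all genes and 14.1% of bright genes, and 7 of the 13 were bright. Both genes that fell are tetraspanins that carry ADAM10. TSPAN17 measured 5.35, 5.11 and 4.92 on siControl arrays and 4.31, 4.29 and 3.87 with siCSRP2 (-0.97, SE 0.16, adjusted p = 0.0142). TSPAN14 measured 4.61, 4.43 and 4.10 on siControl arrays and 3.66, 3.71 and 3.46 with siCSRP2 (-0.77, SE 0.15, adjusted p = 0.0222). In both, siControl 3 was the lowest control and siCSRP2 3 the lowest of all.

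The related carriers TSPAN5, TSPAN10, TSPAN15 and TSPAN33 did not pass, with differences from -0.04 to 0.28. Leaving out siControl 1, siControl 2 or siCSRP2 2 ended both tetraspanin calls, as did siCSRP2 3 for TSPAN14 (adjusted p from 0.052 to 0.107). RHBDF2, the inactive rhomboid that escorts ADAM17 to the surface, measured 3.51, 3.44 and 3.22 on siControl arrays and 2.97, 3.21 and 2.69 with siCSRP2. Its groups did not overlap. It did not pass (-0.43, adjusted p = 0.124) but fell with the replicate block (adjusted p = 0.0408). FURIN, the convertase that removes inhibitory propeptides, differed by -0.27 (adjusted p = 0.274).

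Of 8 inhibitors and cofactors other than TIMPs, 2 fell and none rose (25%, beside 7.34% of all genes and 14.1% of bright genes). RECK, a membrane-anchored inhibitor of several MMPs, measured 4.43, 4.18 and 4.28 on siControl arrays and 3.83, 3.46 and 3.81 with siCSRP2 (-0.59, SE 0.14, adjusted p = 0.0368). The groups were apart, but the call was lost without siControl 1, siControl 2, siCSRP2 2 or siCSRP2 3 (adjusted p from 0.0837 to 0.151). PCOLCE, which enhances the trimming of procollagen by BMP1, measured 6.81, 6.83 and 6.65 on siControl arrays and 5.49, 5.94 and 6.004 with siCSRP2. All siCSRP2 values were lower. It fell from 6.76 ± 0.10 to 5.81 ± 0.28 (SD, n = 3; -0.95, limma adjusted p = 0.0125), and BMP1 itself differed by 0.01. The PCOLCE call was lost without siControl 1 or siControl 2 (adjusted p from 0.0578 to 0.0744).

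Of 8 other metzincins, 2 fell and none rose (25%, beside 7.34% of all genes, 6.54% falling, and 14.1% of bright genes). LMLN, a leishmanolysin-like protease, measured 3.91, 3.85 and 4.04 on siControl arrays and 3.14, 2.98 and 2.96 with siCSRP2 (-0.91, SE 0.11, adjusted p = 0.00625). It passed in each fit that left out 1 array, but not as the mean of its probe sets (-0.47, adjusted p = 0.0701). AMZ2, an archaemetzincin, measured 5.21, 5.28 and 5.13 on siControl arrays and 4.83, 4.34 and 4.38 with siCSRP2 (-0.69, adjusted p = 0.0298). The groups were apart, but the call was lost without siControl 1, siControl 2, siCSRP2 2 or siCSRP2 3 (adjusted p from 0.108 to 0.134). TLL1, TLL2, ASTL, PAPPA2 and AMZ1 did not pass, with differences from 0.07 to 0.22.

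**Figure D4:**
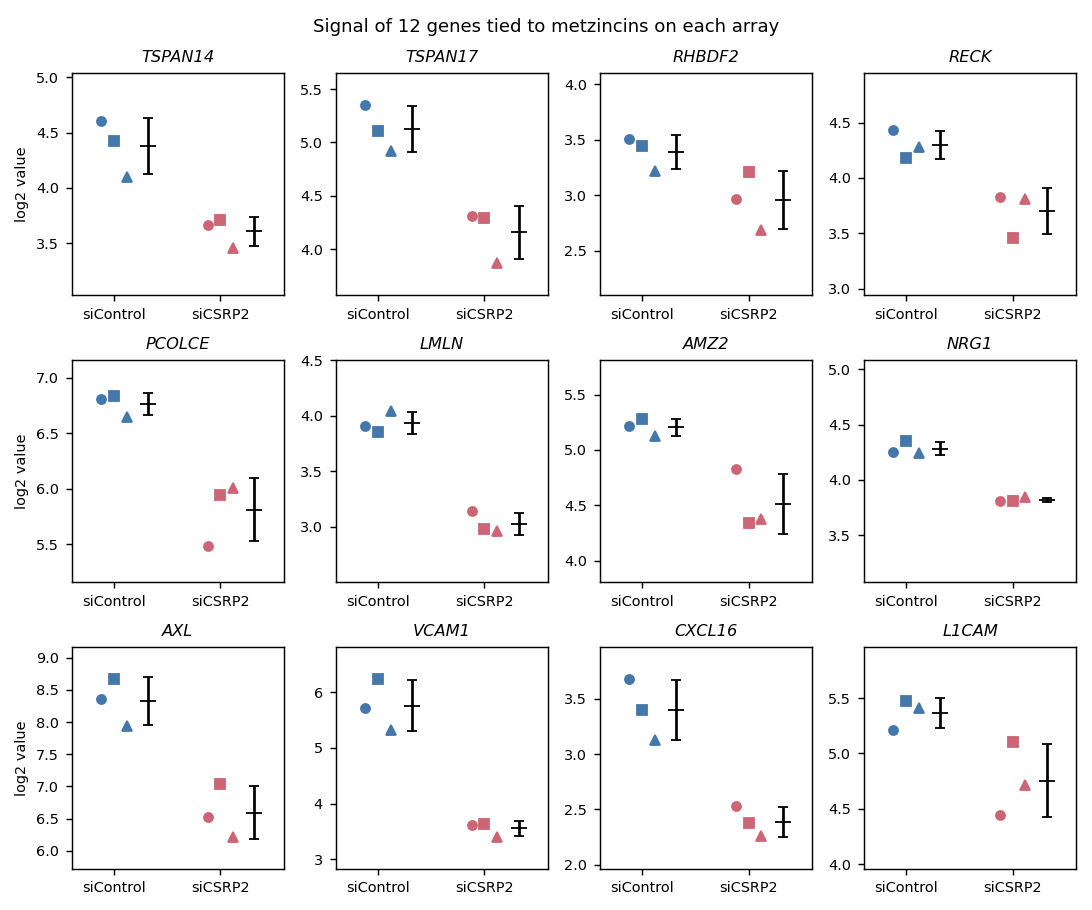
Log2 value (y axis) of 12 genes that mature, inhibit or are cut by metzincins, or are relatives of them, on each array by group (x axis). Symbols are replicates 1 (circle), 2 (square) and 3 (triangle), with mean and SD (n = 3). All 12 are genes that fell with or without the replicate block, so their shared direction follows from that choice. Genes that were higher with siCSRP2, such as HBEGF, SDC4, ICAM1 and TNF, are not shown. The groups do not overlap in any of the 12. RHBDF2 and L1CAM passed with the replicate block and not without it.

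Among other membrane proteins shed by ADAMs, 3 of 20 fell and none rose. That is 15%, beside 7.34% of all genes, but 17 of the 20 were bright and 14.1% of all bright genes passed. The median log2 difference was -0.27, beside -0.15 for all bright genes. VCAM1, an adhesion receptor for leukocytes, measured 5.71, 6.24 and 5.32 on siControl arrays and 3.63, 3.64 and 3.40 with siCSRP2 (-2.20, SE 0.21, adjusted p = 0.00267) and passed with each array left out. AXL, a receptor tyrosine kinase, measured 8.36, 8.67 and 7.93 on siControl arrays and 6.53, 7.03 and 6.21 with siCSRP2 (-1.73, SE 0.24, adjusted p = 0.00833). CXCL16, a membrane-bound chemokine, measured 3.67, 3.40 and 3.13 on siControl arrays and 2.53, 2.37 and 2.26 with siCSRP2 (-1.01, SE 0.15, adjusted p = 0.0108). The groups of all 3 genes were wholly apart. Without siControl 2 the calls of CXCL16 (adjusted p = 0.0643) and AXL (adjusted p = 0.0526) were lost, and without siCSRP2 2 that of CXCL16 (adjusted p = 0.0539). With the replicate block 6 of the 20 fell (VCAM1, AXL, CXCL16, L1CAM, JAG1 and CX3CL1) and 3 rose (SDC4, ICAM1 and TNF), or 45%. Under the block 13.1% of all genes fell, 2.67% rose and 29.7% of bright genes passed in either direction. L1CAM, an adhesion molecule, measured 5.21, 5.47 and 5.41 on siControl arrays and 4.45, 5.10 and 4.71 with siCSRP2. It fell with the block (-0.61, adjusted p = 0.0128) and did not pass without it (adjusted p = 0.0658).

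Of 5 ligands of the EGF receptor family that ADAMs release, NRG1 fell and none rose (20%, beside 7.34% of all genes and 14.1% of bright genes). It measured 4.25, 4.35 and 4.24 on siControl arrays and 3.81, 3.81 and 3.84 with siCSRP2 (-0.46, SE 0.10, adjusted p = 0.0313). Both groups were tight, but the call was lost without siControl 1, siControl 2, siCSRP2 1, siCSRP2 2 or siCSRP2 3 (adjusted p from 0.0607 to 0.141). HBEGF, released largely by ADAM17, did not pass. HBEGF measured 3.17, 3.52 and 4.27 on siControl arrays and 4.05, 4.04 and 4.16 with siCSRP2 (0.43, adjusted p = 0.33), with siControl 3 the highest of all. Without siControl 3 it passed (0.74, adjusted p = 0.00712).

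Of 14 matrix substrates of ADAMTS proteases, 3 fell and none rose (21.4%, beside 7.34% of all genes and 14.1% of bright genes). The proteoglycan VCAN measured 8.19, 8.38 and 8.17 on siControl arrays and 7.49, 7.24 and 7.37 with siCSRP2 (-0.88). DCN, a small collagen-binding proteoglycan, measured 5.32, 5.41 and 5.03 on siControl arrays and 3.98, 4.14 and 4.37 with siCSRP2 (-1.10). LTBP1, a latent TGF-beta binding protein, measured 8.03, 8.04 and 8.27 on siControl arrays and 7.65, 7.57 and 7.54 with siCSRP2 (-0.53). The groups did not overlap in any of the 3, and their adjusted p ran from 0.00826 to 0.0298. Without siControl 2 none of the 3 passed in limma (adjusted p from 0.0526 to 0.103, on differences of -0.81, -1.02 and -0.56, where 2378 of all genes had an unadjusted p under 0.05). LTBP1 also did not pass without siControl 1, siCSRP2 2 or siCSRP2 3. Of 8 plasminogen system genes PLG and ST14 were analysed, both dim, and neither passed.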

How the data were processed

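RNA (100 ng per sample) was labelled and hybridised to HuGene 2.0 arrays. The authors deposited 1 log2 value per probe set (53617) and array; the base is inferred from the range. Partek is the tool listed in the submitters' processing notes; background correction, normalization and build are not stated there or in the labels. A platform table named 16098 probe sets, and the brightest on average stood for its gene. Differences were tested with limma 3.58.1 (R 4.3.3; lmFit and eBayes on group alone, two-sided) and adjusted by Benjamini-Hochberg over 14884 genes at 0.05. In simulated data of 14884 genes this recovered 84% of changes of 1 and 96% of changes of 2 on the log2 scale, with 9 false calls. The simulated noise was independent between arrays, without deviations shared by replicate number, and 100 genes were changed at each size. Smaller changes, such as those of most of the 51 genes, were not simulated, so these shares do not give their recovery.

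Arrays with the same number deviated together (r = 0.305, 0.187 and 0.321 across genes), so the numbers were read as pairing them, a pairing found in the data. A fit with the number as a block is given beside the unblocked one where the call of a member changed, and for CSRP2, KRT18, RHBDF2 and L1CAM. The calls of JAG1, CX3CL1, SDC4, ICAM1 and TNF changed too, and these genes are only named. Array values are given for members passing with or without the block, the TIMPs, the 12 brightest members and the 3 largest differences each way, and, of related lists, for the genes that passed and for RHBDF2, L1CAM and HBEGF, all among the 4 with the smallest adjusted p in their list. Other members are given by range. ADAM21, ADAMTSL1, MMP19, FURIN, BMP1, JAG1, CX3CL1, SDC4, ICAM1 and TNF were singled out after their values were seen. Members and lists were chosen with earlier results of these data known.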

Additional observations from a re-analysis of the deposited data

How the results depend on the processing

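ADAM15 kept its direction in all 17 alternatives and passed in 16. The number of the 51 genes past the threshold was 2 as deposited and 3 with the replicate block (adding ADAM17). It was 5 with quantile normalization and the block, 8 with median centring and the block (1 rose, 7 fell) and 5 with array weights. With the dimmest 50% of genes left out, 1 of the 19 members still tested passed (5.26%, beside 17.3% of all genes tested there). With 1 array left out the number was 0 to 3. The 0 arose in limma without siControl 2, where 5 had an unadjusted p under 0.05, as did 2378 of all 14884 genes. The 3 arose without siControl 3. For all genes the number was 1093 as deposited, 2348 with the block, 2010 and 2962 with the block after quantile normalization and median centring, 2924 with array weights, and from 91 (without siControl 2) to 2620 (without siControl 3) with 1 array left out. On the deposited values the block changed no other call among the members. After median centring it added ADAM12, ADAM17, ADAMTSL1, ADAMTSL5, MMP19 and MMP25, and after quantile normalization ADAM17, ADAM9 and MMP24.

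The median of the 51 genes went from 0.038 to -0.0030 with quantile normalization, -0.0062 with cyclic loess, -0.048 with median centring (the same with the block), -0.0070 and -0.033 with the dimmest 25% and 50% left out, and 0.021 to 0.072 with 1 array left out. The median of all genes went from 0.019 to -0.016 with quantile normalization, -0.023 with cyclic loess and -0.067 with median centring. It moved by -0.17 with the dimmest 50% left out. Differences near 0 turned sign. TIMP2 was 0.050 after quantile normalization, with or without the block, and 0.019 after cyclic loess. MMP14 was 0.15, 0.12 and 0.046 after quantile normalization (also with the block), cyclic loess and array weights. MMP16 was -0.015 and ADAM19 -0.083 after median centring, with or without the block. With 1 array left out MMP14 ran from -0.14 to 0.085, MMP16 from -0.017 to 0.24, ADAM19 from -0.14 to 0.23 and TIMP4 from -0.13 to 0.011. The cause was not tested. RECK, AMZ2 and NRG1 did not pass after quantile normalization or cyclic loess, nor did LTBP1 after quantile normalization, and RECK, NRG1 and LTBP1 did not pass with a trended, robust variance. No background signal was used here, so dim probe sets have no marked limit.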
